A study of Arabidopsis thaliana with 28 samples.

Results

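STZ (AT1G27730, also called ZAT10) and ORA47 (AT1G74930) are 2 stress-response transcription factor genes of Arabidopsis thaliana, and both lie on chromosome 1. They were taken as the probe sets annotated to these genes on the Affymetrix ATH1 array, which gave 1 probe set for each gene, or 2 of the 22810 on the array. The genes were picked with their signals in these same samples known, so their levels are described here and no test is made on them. All groups shared the accession Col-0, compost, a growth room lit for 10 h a day, and a treatment of low light at ambient CO2. There were 4 replicates of developing leaves (insertions 19 to 21) for each of 6 durations of treatment, which were 2, 4, 12, 24, 48 and 96 h. Mature leaves of plants treated for 24 h gave 2 replicates. The title of the series speaks of systemic signalling of light and CO2. Untreated plants are not part of the comparisons, which set times or leaf ages against each other. The labels do not say whether the sampled leaves were themselves shaded, how many plants went into a sample, or whether replicates were separate plants, and they give no hour of the day for any harvest.

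STZ encodes a C2H2 zinc finger protein with a repression motif of the EAR type. Its transcript is known to rise quickly after salt, cold, wounding and excess light, and the gene has been studied in the response of whole plants to light falling on only some leaves. ORA47 encodes an AP2/ERF factor of the DREB type that responds to jasmonate, the wound hormone, and activates genes of jasmonate synthesis. Both transcripts are known for brief, strong induction in leaves after mechanical or chemical stress.

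The 28 arrays, of which 27 were used, had medians between 40.8 and 48.1 with control probe sets included. The unit is the MAS5 signal, a linear brightness per probe set that the authors scaled to the same trimmed mean of 100 on every array. Means below are of this signal ± SD, where n is 4 at each developing time and 2 in mature leaves. Log2 differences are of the signal plus 10 and so are smaller than ratios of plain signals for weak probe sets. Signals of different probe sets are not on 1 scale, so levels are compared within a gene. Percentiles on an array only describe where a signal lies among all probe sets. The number of arrays limits the precision, and signals near the filter value of 27.8 (the 40th percentile of mean levels) carry the most noise. Of the marker genes for leaf photosynthesis, 5 of 7 had a named probe set, with signals from 638 to 5049 in developing and from 1710 to 5057 in mature leaves, and their summed signal ran from 8792 to 19396 and from 18711 to 20485. CLV3, the 1 meristem marker with a named probe set, stayed between 1.57 and 4.17, and EXPA7, an expansin gene of root hairs, between 5.71 and 33.1, while no flower or phloem marker had a named probe set.

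STZ was far lower in developing leaves at every time than in mature leaves. In mature leaves its signal was 804 and 884, and over the 24 developing replicates it ran from 6.83 to 79.6 with a median of 36.1. The lower mature value was 10.1 times the highest developing value, so the leaf ages did not overlap. On single arrays STZ lay between percentiles 19.3 and 64.4 of all probe sets in developing leaves and between 97.1 and 97.3 in mature leaves. Against developing leaves at 24 h, with 26.9 ± 7.63, the mature mean of 844 ± 57 was 31.4 times as high, a log2 difference of 4.56 with SDs of 0.096 and 0.32 in the groups. The developing mean at 24 h is under the filter value of 27.8 and is not shown to be above background, so the ratio is one of measured signals and not a measured fold of transcript.

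ORA47 showed the same contrast. Its signal was 794 and 1069 in mature leaves, and it ran from 21.7 to 61.8 with a median of 32.6 over the 24 developing replicates. The lower mature value was 12.8 times the highest developing one, and again nothing overlapped. ORA47 lay between percentiles 35.2 and 58.7 of its array in developing leaves and between 97.0 and 98.0 in mature leaves. The mature mean of 931 ± 194 stood at 29.7 times the 31.4 ± 8.06 of developing leaves at 24 h, a log2 difference of 4.51 with SDs of 0.30 and 0.28. Both mature values exceeded all 24 developing values for both genes, which was also so for 2590 of 13647 probe sets tested, or 19%.

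**Figure D1:**
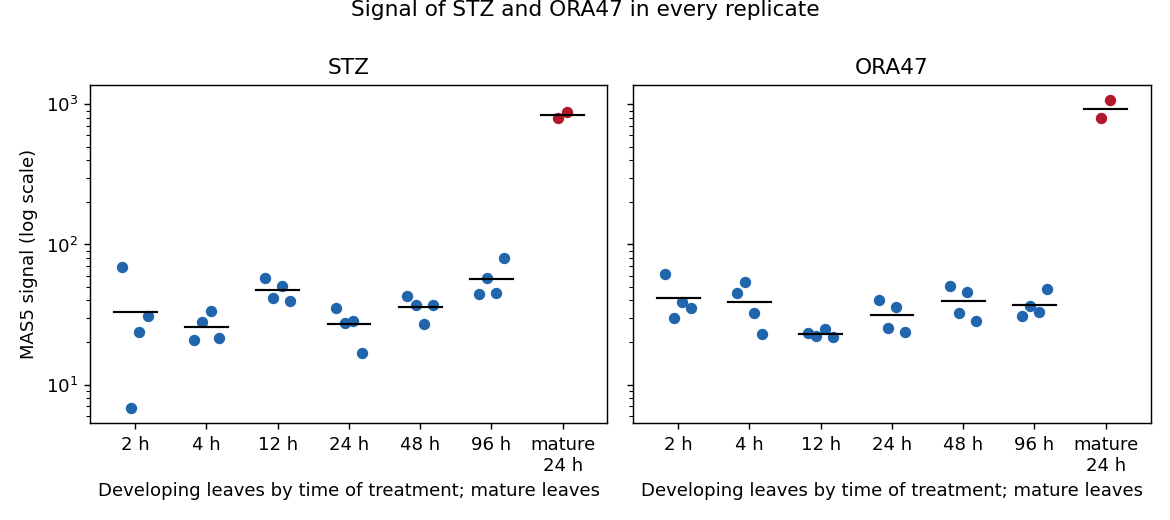
MAS5 signal on a log axis for STZ (left) and ORA47 (right), with 1 point per replicate and a bar at the mean of each group, for developing leaves by hours of treatment (blue) and mature leaves at 24 h (red). The mature values, 804 and 884 for STZ and 794 and 1069 for ORA47, stand above every developing value.

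Among the 13647 probe sets tested, the log2 difference in measured signal between mature and developing leaves at 24 h ranked 12th from the top for STZ and 14th for ORA47. Both genes also passed the filter on their developing leaves alone, with back-transformed means of 34.8 and 33.9. The difference held against each developing time. The mature mean of STZ was 14.9 times that of developing leaves at 96 h, the nearest, and 32.6 times that at 4 h, the farthest. For ORA47 the ratios ran from 22.5 against 2 h to 40.3 against 12 h. The developing means of STZ at 4 h (25.9) and ORA47 at 12 h (23.1) are under the filter value of 27.8. Developing levels of either gene are not shown to be above background, so these ratios are of measured signals and not measured folds of transcript. Fewer cells that express a gene and less RNA per cell cannot be told apart in these bulk samples. Mature leaves were sampled at 1 time only, so leaf age and anything else that set those 2 samples apart cannot be told apart either. RNA quality, read as the log2 ratio of the actin 3' to the actin 5' control, was 1.14 and 2.19 on the mature arrays. It was between 1.64 and 2.07 in developing leaves at 24 h. The ratio was not even over developing times, with means of 2.56 at 2 h, 2.47 at 4 h and 1.76 at 12 h. At 24, 48 and 96 h its means were 1.85, 2.05 and 1.80. The part of RNA quality in the comparisons of leaf ages and of times was not tested.

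**Figure D2:**
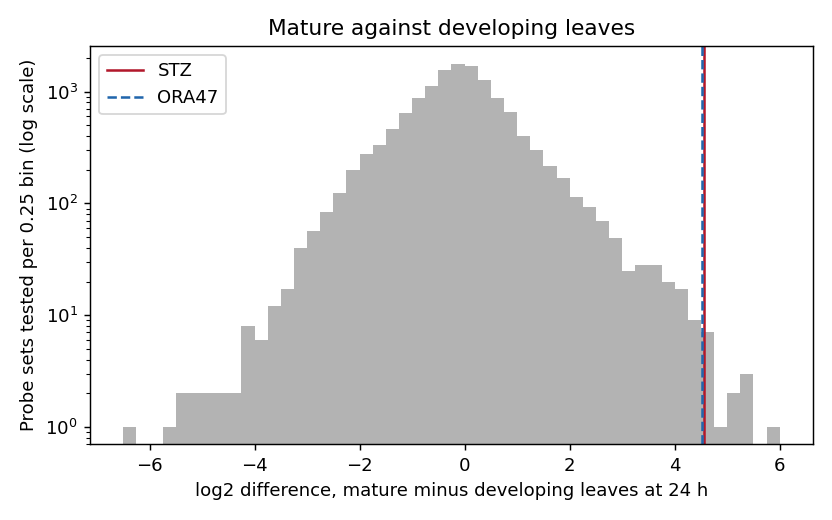
Number of probe sets tested (log axis) in bins of 0.25 of the log2 difference between mature and developing leaves at 24 h. The lines for STZ (4.56) and ORA47 (4.51) lie together in the right tail, 12th and 14th of 13647.

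Within developing leaves the levels moved far less. At 2 h, STZ gave 69.3, 6.83, 23.8 and 31.0 in replicates 1 to 4, the widest spread of any time. At 4 h it gave 20.9, 27.9, 33.4 and 21.4. At 12 h it gave 57.8, 41.3, 50.9 and 39.4. All 4 values at 12 h lay above all 4 at 4 h, an order that 17.7% of probe sets tested also had, and above all 4 at 24 h, as for 21.1%.

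At 24 h, STZ gave 35.3, 27.3, 28.3 and 16.8, where the first is the mean of a pair of arrays with 35.1 and 35.4. At 48 h it gave 42.9, 37.2, 26.9 and 37.0. At 96 h it gave 44.3, 57.6, 44.9 and 79.6. These times lie whole days apart, though no hour of harvest is given, and the means were 26.9 ± 7.63, 36.0 ± 6.65 and 56.6 ± 16.5. The values at 96 h lay wholly above those at 4 h, 24 h and 48 h, as was so for 17%, 7.09% and 4.06% of probe sets tested, while those at 48 h and 24 h overlapped. From 24 h to 96 h the log2 difference was 0.85, with SDs of 0.34 at 96 h and 0.32 at 24 h. Without untreated leaves in the comparison, duration of treatment and age of the developing leaves cannot be told apart here. Ordered by mean signal, STZ went from mature leaves down through 96 h, 12 h, 48 h, 2 h and 24 h to 4 h (25.9 ± 5.93). Apart from the step below mature leaves, only the step from 12 h (47.4 ± 8.6) to 48 h exceeded the pooled SD of its neighbours, and even there the values overlapped.

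ORA47 had another course in developing leaves. It gave 61.8, 30.1, 38.7 and 35.2 in replicates 1 to 4 at 2 h, and 44.8, 54.3, 32.3 and 23.0 at 4 h. At 12 h it gave 23.3, 22.3, 25.05 and 21.7, its lowest and tightest group. The 12 h values lay wholly below those at 2 h, 48 h and 96 h, orders that 16.5%, 18.4% and 21.1% of probe sets tested also had, and they overlapped those at 4 h and 24 h. At 12 h, ORA47 thus had the lowest of its means, 23.1 ± 1.46, while the mean of STZ was exceeded only at 96 h among developing times. Unlike 24, 48 and 96 h, the times 2, 4 and 12 h do not lie whole days from any other. In comparisons with them, duration of treatment, age of the leaves and hour of the day cannot be told apart.

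At 24 h, ORA47 gave 40.5, 25.4, 35.8 and 23.8. The first of these is the mean of arrays with 33.2 and 49.0, which bear the same replicate title and differed 1.48-fold for this gene. At 48 h the values were 50.7, 32.3, 45.4 and 28.6, and at 96 h they were 30.8, 36.3, 33.0 and 48.4. The means over these whole days were 31.4 ± 8.06, 39.3 ± 10.5 and 37.1 ± 7.83, with all 3 groups overlapping. Ordered by mean, ORA47 went from mature leaves to 2 h (41.5 ± 14.1), 48 h, 4 h (38.6 ± 13.7), 96 h, 24 h and 12 h. Of the steps between neighbours among the developing times, only that from 24 h to 12 h exceeded the pooled SD, with overlapping values.

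**Figure D3:**
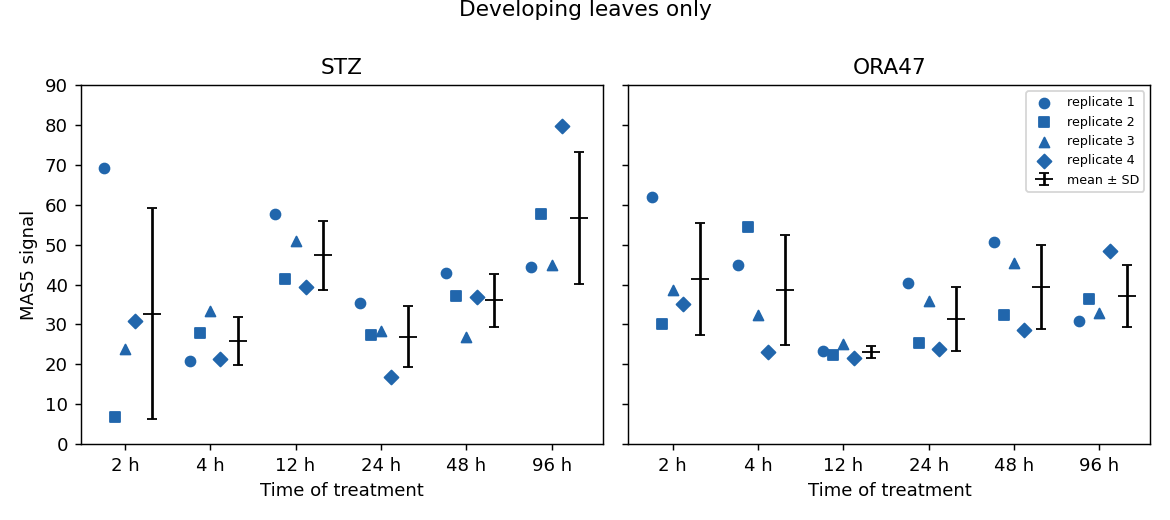
MAS5 signal of STZ (left) and ORA47 (right) in developing leaves only, on linear axes from 0 to 90, by hours of treatment, with a symbol for each replicate number and the mean ± SD of 4 replicates beside them. STZ is highest at 96 h and spreads from 6.83 to 69.3 at 2 h, and ORA47 is lowest at 12 h, between 21.7 and 25.05.

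The spread between replicates of the same time was uneven over the times for both genes. The SD within developing groups on the log2 scale was 0.45 for STZ, larger than for 98.7% of probe sets tested and for 97.4% of the 1000 nearest to it in developing level. For ORA47 it was 0.30, larger than for 92.2% of those tested and 83.7% of the 1000 nearest. Taken by time, the SD of STZ was 0.92 at 2 h and between 0.21 and 0.34 at the other times. Its pooled value thus rests largely on replicates 1 and 2 of 2 h. That of ORA47 ran from 0.063 at 12 h to 0.42 at 4 h. The replicates that departed from their group mean did so in part together. At 4 of 6 times the same replicate was highest for both genes, replicate 1 at 2, 24 and 48 h and replicate 4 at 96 h. At 4 of 6 times the same replicate was lowest for both. How often other pairs of genes share such orders was not tested.

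Over the 26 replicates, Pearson's r between the genes was 0.91 for log2 levels, a value that rests on the 2 mature replicates. Over the 24 developing replicates it was 0.21, and Spearman's rho over all 26 was 0.29. After subtraction of each group's mean, r was 0.58 over the 26 replicates, and 0.42 without replicates 1 and 2 of 2 h, which lie farthest out for STZ. The points share groups and arrays, so these values are descriptions.

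**Figure D4:**
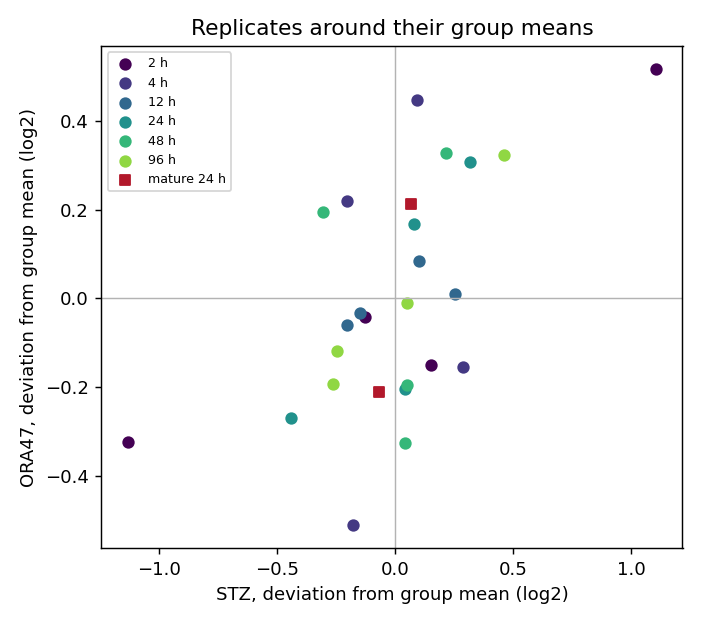
Deviation of each of the 26 replicates from its group mean on the log2 scale, STZ on the horizontal and ORA47 on the vertical axis, coloured by group, with mature leaves as red squares. Replicate 1 at 2 h lies farthest to the upper right and replicate 2 at 2 h farthest to the left, while replicate 4 at 4 h is lowest for ORA47. With both 2 h replicates r is 0.58, and without them 0.42.

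The named genes most like STZ by level over the 26 replicates were AT1G19380, TET8 (a tetraspanin, a membrane protein), AT3G51730, AT5G54940, YLMG1-2, AT1G76600, AT4G00780 and AT3G51000, out of 7356 ranked, with r from 0.95 to 0.97. Their r with STZ over the 24 developing replicates stayed between 0.63 and 0.83. AT1G19380 headed the list, with 742 and 718 in mature and 54.0 to 179 in developing leaves. It also came first by deviation from the group means, with r = 0.87, followed by AT5G19240 (0.85), AT1G13750 (0.82), AT1G63840 (0.80), AT3G04210 (0.79) and AT1G55450 (0.79). AT5G19240 ran from 85.2 to 667 in developing leaves and gave 1013 and 1042 in mature leaves.

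For ORA47 the genes most alike by level were AT5G18630, AT2G42760, AT2G25450, AT1G73750, AT3G04640, AT4G24380, AT3G14595 and AT1G75460, with r from 0.95 to 0.97. None of these 8 was among the 8 of STZ, and over the developing replicates their r with ORA47 ran only from 0.18 to 0.59. AT2G42760 gave 848 and 808 in mature leaves against 22.1 to 53.3 in developing leaves. By deviation the nearest were AT1G02410 (0.82), AT1G33475, AT1G33811, ALN (allantoinase, an enzyme of purine breakdown), AT4G26710 and AT3G11530, the last with r = 0.74, and none of the 6 was among those of STZ. STZ itself had 67 named genes above it in likeness to ORA47 by level, and ORA47 had 82 above it in likeness to STZ. By deviation these numbers were 94 and 118, so the shared departures were not particular to this pair.

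Other genes of stress responses were examined to set beside these levels, from 9 lists of 143 genes in all. The lists were chosen with earlier results of these data known, so counts from them are descriptions and not independent evidence. The genes were tested with limma in 1 fit over all groups, with p-values adjusted over the 13647 probe sets. A named probe set was at hand for 19 of the genes, from 5 lists, and 9 of them were above the filter. No named probe set was at hand for the 14 rapid-response ERF factors, the 14 genes of jasmonate signalling, the 13 of reactive oxygen or the 11 upstream regulators and corepressors. Between mature and developing leaves at 24 h, 7 of the 9 were higher in mature leaves and 0 lower, 77.8% against 27.1% of all probe sets tested. Of all tested, 64.6% passed in either direction and 37.5% were lower in mature leaves, and 9169 of all had an unadjusted p under 0.05. With the filter taken on developing replicates only, a setting chosen after the data were seen, 8 list genes were tested and 6 were higher, against 26.5% of all 13618. The gene that dropped out was WRKY53. The median log2 change was 1.03 over the 9 and -0.10 over all.

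Among the rapid stress and touch genes, 2 of 3 tested were higher. WRKY53, a WRKY factor gene linked to leaf senescence and defence, gave 162 and 216 in mature leaves and 22.4 ± 3.89 in developing leaves at 24 h (log2 change 2.61 ± 0.19 SE, limma adjusted p = 1.8e-12). Its developing mean of 25.5, back-transformed from log2, was under the filter, so WRKY53 was tested only through its mature values and had to differ. WRKY22, a factor of defence signalling, rose from 29.9 ± 3.92 to 61.3 ± 13.7 (adjusted p = 7.7e-05). PUB23, a U-box ubiquitin ligase gene of stress responses, stood at 49.9 ± 3.28 and 48.6 ± 11.6 (adjusted p = 0.83).

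On the jasmonate side, where ORA47 acts, the 1 synthesis gene with a named probe set was OPCL1, a ligase that activates jasmonate precursors. It gave 635 and 707 in mature leaves against 143 ± 42.7 (log2 change 2.19 ± 0.19, limma adjusted p = 1.1e-10). Its developing values, from 81.0 to 200.01, lay wholly below the mature ones. ERF014, the 1 relative of ORA47 tested, stood at 81.0 ± 2.03 in mature and 109 ± 36.4 in developing leaves (adjusted p = 0.19).

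Of the cold and abscisic acid list, all 4 genes tested were higher in mature leaves. COR15A, which encodes a chloroplast protein of cold acclimation, gave 221 and 463 against 70.3 ± 8.05 (log2 change 2.05 ± 0.25, limma adjusted p = 3.6e-08). Its log2 SD was 0.73 in mature leaves and 0.15 in developing leaves at 24 h, while the p-value uses 1 spread shared over all groups. The dehydrin gene COR47 gave 567 and 760 against 194 ± 25.5 (1.72 ± 0.18, adjusted p = 2.1e-09). LTI30, another dehydrin gene, gave 49.4 and 105 against 30.7 ± 3.63 (adjusted p = 4.2e-05), and COR15B, the close relative of COR15A, rose from 92.8 ± 15.8 to 175 ± 11.2 (adjusted p = 0.0011). At 4 h, developing leaves reached 463 for COR15B, above both mature values, and 294 for COR15A, above the lower one, so for these genes the leaf ages overlapped once all times were counted. LTI30 overlapped too, with up to 64.9 at 2 h. COR15A and COR15B are close relatives, and how far their probe sets share signal was not tested.

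**Figure D5:**
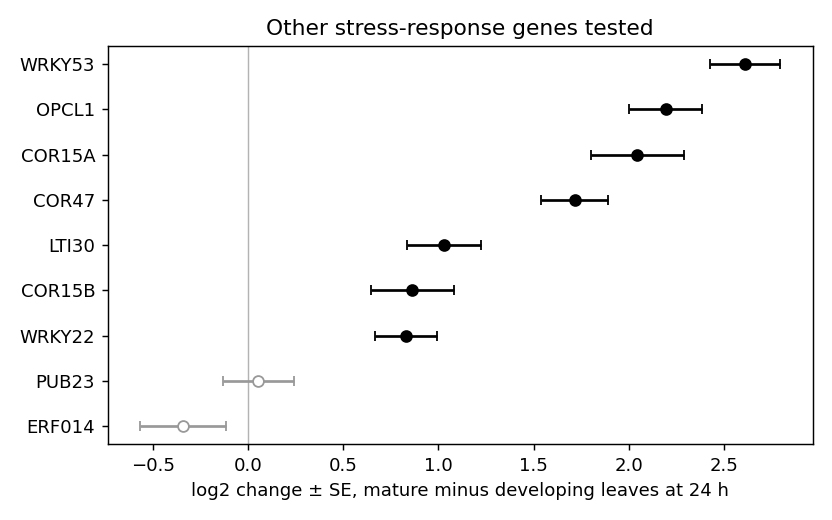
Log2 change ± SE between mature and developing leaves at 24 h for the 9 listed genes tested, with filled points for limma adjusted p under 0.05. WRKY53 (2.61) and OPCL1 (2.19) lie farthest to the right, and PUB23 and ERF014 did not pass.

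The filter on the mean over all replicates removed genes that were low in developing leaves, so the 9 are not all the list genes with a named probe set. With no filter, 12 of 19 were higher in mature leaves and 0 lower, or 63.2% against 21% of 22746 probe sets. The added ones, named here after their values were seen, were ERF017, ERF013, CML37, CML38 and PUB22. These calls are against developing leaves at 24 h only. PUB22 gave 14.1 in each mature replicate, below its developing means of 15.1 at 2 h and 19.1 at 12 h. Its developing values reached 22.4, so every signal of PUB22 was under the filter value. ERF013 gave 28.5 and 42.8 in mature and up to 31.3 in developing leaves. PUB22 and ERF013 thus overlapped once all times were counted, while ERF017, CML37 and CML38 did not. CML38, a calmodulin-like calcium sensor gene of touch and wounding, gave 123 and 165 in mature leaves and at most 17.0 in developing leaves (adjusted p = 2.1e-08 with no filter). ERF017, a DREB-type relative of ORA47, gave 70.1 and 93.2 against at most 39.8 (adjusted p = 2.9e-07 with no filter). The 4 zinc finger relatives of STZ with a named probe set, ZAT4, ZAT5, ZAT9 and ZAT18, were all under the filter, and none passed without it (adjusted p from 0.093 to 0.78).

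Families grouped by symbol after the data were seen held 4 of 5 tested WRKY factors and 3 of 6 U-box ligases that were higher in mature leaves, against 27.1% of all. Of those WRKY factors, WRKY53 and WRKY47 passed the filter only through mature leaves, with developing means of 25.5 and 27.4. WRKY53 and WRKY22 were already counted among the list genes, so the counts overlap. ZAP1 was near the threshold (limma adjusted p = 0.044). PUB19, a U-box ligase gene of abscisic acid and drought responses, rose from 36.0 ± 6.61 to 229 ± 45.8 (limma adjusted p = 1.1e-10). The 1 calmodulin-like gene tested did not pass.

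In developing leaves the listed genes were tested in 5 comparisons of times. From 2 h to 4 h, 2 of 9 rose against 1.6% of all probe sets tested, of which 2.78% passed in either direction and 1.18% fell. They were COR15A, from 102 ± 24.2 to 219 ± 56.1 (limma adjusted p = 0.0024), and COR15B, from 150 ± 27.1 to 395 ± 73.4 (adjusted p = 2e-05), at a time when STZ and ORA47 had log2 differences of -0.053 and -0.091. The sign of these turned with single replicates. Leaving out replicate 1 of 2 h gave 0.32 for STZ and 0.08 for ORA47, leaving out replicate 2 of 2 h gave -0.43 for STZ, and leaving out replicate 4 of 4 h gave 0.08 for ORA47 as well. From 2 h to 12 h, 2 of 9 rose against 20.4% of all (38.7% in either direction, 18.4% falling), WRKY53 from 16.5 ± 3.35 to 33.4 ± 4.66 (adjusted p = 0.00046) and WRKY22 from 27.6 ± 5.24 to 38.4 ± 3.96 (adjusted p = 0.029). STZ had a log2 difference of 0.63 there, which was 0.25 without 2 h replicate 2 and 0.99 without 2 h replicate 1. That of ORA47 was -0.60. The call of WRKY22 ended without 2 h replicate 1 (adjusted p = 0.069) or 2 (0.12), without 12 h replicate 1 (0.051), 3 (0.059) or 4 (0.088), and with no filter (0.051).

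Between 2 h and 24 h, 2 of 9 fell against 6.29% of all, with 5.85% rising and 12.1% passing in either direction. COR47 had an adjusted p of 0.056 and would be a further fall without 2 h replicate 4 (0.035) or 24 h replicate 1 (0.039), with median centring (0.049) or with the replicate block (0.033). LTI30 fell from 53.6 ± 8.68 to 30.7 ± 3.63 (limma adjusted p = 0.0073). COR15B fell from 150 ± 27.1 to 92.8 ± 15.8 (adjusted p = 0.017). Leaving out replicate 4 of 2 h (0.077) or replicate 1 of 24 h (0.064) took it past the threshold. From 24 h to 48 h, 0 of 9 passed by limma against 0.0659% of all (0.0586% rising, 0.00733% falling), and 1 of the 9 had an unadjusted p under 0.05. From 24 h to 96 h, 1 of 9 rose against 4.62% of all, with 4.35% falling and 8.96% passing in either direction. This was WRKY53, from 22.4 ± 3.89 to 40.1 ± 8.26 (adjusted p = 0.0094), over the interval in which STZ had a log2 difference of 0.85 and ORA47 of 0.19. Leaving out replicate 4 of 96 h gave 0.09 for ORA47, and leaving out replicates 4, 2 or 1 of 24 h in turn gave 0.10, 0.13 and 0.30. The moderated F test over the 6 times passed for 6 of 9, against 57.7% of all, and for 5 to 7 with 1 replicate left out.

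The genes beside STZ and ORA47 on the chromosome were examined as well, 5 places to each side, a choice made after the data were seen. Of all probe sets tested, 27.1% were higher and 37.5% lower in mature leaves. Of the 10 neighbours of STZ, 3 had a named probe set, and in mature leaves 0 were higher and 2 lower, with AT1G27700 at 68.5 ± 5.62 against 102 ± 6.16 (limma adjusted p = 0.00064) and SAT32 at 54.4 ± 0.445 against 76.5 ± 5.96 (adjusted p = 0.011). Of the 10 neighbours of ORA47, 5 had a named probe set, 2 were higher and 1 was lower, and no difference from those shares was tested. AT1G74940, 2 places away, went from 18.3 ± 7.69 in developing to 124 ± 9.02 in mature leaves, higher by 2.28 ± 0.22 on the log2 scale (adjusted p = 6.5e-10). Over all developing times its mean, back-transformed from log2, was 39.2, so 24 h was a low time for this gene. Its r with ORA47 by level was 0.44. AT1G74910 rose from 230 ± 55.2 to 326 ± 15.4 (adjusted p = 0.011). ARR15, a response regulator gene of cytokinin signalling, fell from 101 ± 12.6 to 40.3 ± 5.82 (adjusted p = 5.4e-07). The nearest gene with a named probe set, ALDH10A8 (an aldehyde dehydrogenase), stood at 746 ± 30.8 and 631 ± 74.1 (adjusted p = 0.06).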

How the data were processed

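The authors deposited 1 intensity per probe set for each of 28 arrays, which per the submitters' processing notes is a MAS5 signal (linear, version not given), and the 2% trimmed mean was found to be 100 on every array. Detection calls were not used. Probe sets were named from the platform's gene table (13513 with 1 gene, 503 with several, 8730 not listed), with symbols updated through gene identifiers of TAIR10.1, and the probe set with the highest mean stood for a gene. Of 28 arrays, 27 were used. One, whose treatment note gives ES where the others give AS, was in no group, and a pair of arrays with the title of 24 h replicate 1 was averaged after the log2 step, leaving 26 replicates.

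Signals were transformed as log2 after adding 10. The 64 control probe sets were left out, and probe sets with a mean above the 40th percentile (27.8) were kept for testing, 13647 in number. A single model of all groups was fitted with limma 3.58.1 in R 4.3.3 (eBayes with trend, 19 residual degrees of freedom, two-sided). The Benjamini-Hochberg method adjusted p-values across all 13647, and 0.05 was the threshold. They measure only the spread between these samples. The steps were tested on simulated data. The members, lists and rules were chosen with earlier results of these data known. Like genes were the 8 with the highest Pearson's r by level and the 6 by deviation from group means. Of each list the text names up to 4 genes past the threshold with the largest change, and, in lists with 3 or fewer tested genes, also those that did not pass. Families and neighbours were chosen after the data were seen. No sequences of the genes are printed. Same-numbered replicates correlated above 0.1 in their deviations in 28 of 62 pairs, with r from -0.12 to 0.62. A relation between replicates of the same number is therefore not excluded. The main fit used no block, and a replicate block was run as an alternative. The alternatives were other pseudocounts, filters and scalings, a replicate block, no trend, only the compared groups, either 24 h replicate 1 array, developing replicates 1 and 2 only, each replicate left out in turn and, added after the data were seen, a filter on developing replicates only.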

Additional observations from a re-analysis of the deposited data

How the results depend on the processing

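The log2 differences between mature and developing leaves kept their direction under every alternative run. With a pseudocount of 1 they were 4.96 for STZ and 4.87 for ORA47, with 50 they were 3.54 and 3.58, and with 1 replicate left out they ran from 4.41 to 4.66 and from 4.30 to 4.73. With a pseudocount of 50, STZ differed by 0.46 from 24 h to 96 h and ORA47 by -0.31 from 2 h to 12 h, and the correlation of both genes was 0.96. That correlation was 0.21 over developing replicates only, 0.29 as Spearman's rho and, in settings chosen after the data were seen, 0.58 for deviations and 0.59 for those of developing replicates. The replicate block gave 4.52 for STZ and 4.44 for ORA47 in mature leaves and 7 list genes called. It changed 1 call over the 6 contrasts, COR47 from 2 h to 24 h, and gave 7 calls in the F test. Of 24 developing replicates, 14 correlated best with their own number. Of the list genes called, those in mature leaves numbered 7, but 12 with no filter and 4 with a filter at the 60th percentile. At 12 h against 2 h they numbered 2, but 1 with no filter, 0 of 5 tested with a filter at the 60th percentile (1 at an unadjusted limma p under 0.05), and 1 to 3 with 1 replicate left out. At 96 h against 24 h they numbered 1, but 0 of 5 with a filter at the 60th percentile (1 at an unadjusted limma p under 0.05) and 2 with only the compared groups. With the filter on developing replicates only, chosen after the data were seen, they numbered 6 of 8 in mature leaves, 1 at 12 h against 2 h and 0 at 96 h against 24 h (2 at an unadjusted limma p under 0.05). The F test count of 6 was 7 with quantile normalization, no filter or the first 24 h replicate 1 array, 5 with the filter on developing replicates and 4 with the 60th percentile. From 2 h to 24 h the count of 2 was 3 with no filter, median centring or the block. The filters change which genes are tested. With 1 mature replicate left out, the other is assumed to vary like the developing groups. Without detection calls, signals near background cannot be told from none.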

Other observations

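The array titled 4 h replicate 1 whose treatment note differs from the others gave 27.0 for STZ and 48.7 for ORA47. Both values lie within the range of the 4 developing replicates at 4 h, 20.9 to 33.4 for STZ and 23.0 to 54.3 for ORA47.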
